A study of Mus musculus with 10 samples.

Results

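Cell cycle and DNA replication genes were followed in mouse distal colorectum, from C57BL/6J animals and about 1 cm above the anus. The set has 34 genes out of 18193 measured, chosen by name: 12 act in S phase, when DNA is copied, and 22 act in mitosis, when the copies are separated. A gene was read from the brightest of its Affymetrix probe sets, and 33 of the 34 genes could be read. For Ccnb1 (cyclin B1) no probe set was assigned to that gene alone, so it has no value here. Tyms, the thymidylate synthase that makes DNA precursors, lay between 5.12 and 6.74 and never above the array median. It failed the filter on low values, which left 32 genes for testing, 11 of S phase and 21 of mitosis. All 32 lay above the median on every one of the 10 arrays, so none of them passed the filter through one group alone.

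Total RNA was hybridised to 10 arrays, 1 for each sample. Unirradiated Pdgfc+/+ (wild type) and unirradiated Pdgfc-/- (knockout) mice gave 2 arrays each. Wild type and knockout mice that had received 25 Gy of local γ-rays at 2.14 Gy/min under chloral hydrate gave 3 arrays each, with tissue taken 8 weeks after the dose. The labels call the replicates biological and give no age, sex or construction of the Pdgfc allele. Pdgfc encodes a growth factor of the PDGF family that acts on mesenchymal cells. Values are MAS5 signals on the log2 scale, so a difference of 1 is a 2-fold change, and arrays are listed in the order of their replicate numbers. A gene was called at a Benjamini-Hochberg adjusted p under 0.05 in a limma fit over all 12568 genes tested.

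Epithelial cells of the colon divide in the lower part of the crypt and stop dividing as they move up and differentiate. E2F transcription factors switch on genes of DNA replication as a cell enters S phase, among them the Mcm helicase subunits, the sliding clamp Pcna, the ribonucleotide reductase subunits Rrm1 and Rrm2, and the E cyclins. Genes of mitosis are switched on later, through B-MYB, FOXM1 and the MuvB complex, and are held off in resting cells. In whole tissue, fewer cells of a type and less RNA per cell cannot be told apart.

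The promoters of the members carried the sequence elements known from cell cycle genes. RefSeq windows on GRCm38.p6, from 250 bases before to 50 bases after the start, were at hand for 28 of the 34 genes. The search covered both strands for CCAAT (the NF-Y box), for TTTGAA or TTTAAA (forms of the cell cycle homology region, CHR, which MuvB reads), and for forms of the E2F site. These E2F forms were TTCCCGC, the related form TTCGCGC, the form with a different start TTGCCGC and, as the last form searched, TTGGCGC. Forms of the E2F site on opposite strands can overlap and then count as 2. Of 18 mitotic promoters, 16 (88.9%) held CCAAT, 16 (88.9%) held a CHR form and 15 (83.3%) held both, while 3 (16.7%) held an E2F form. Of 10 S-phase promoters, 8 (80.0%) held CCAAT, 4 (40.0%) a CHR form, 3 (30.0%) both and 6 (60%) an E2F form. The other genes tested, 10080 with a window, had CCAAT in 37.9%, a CHR form in 19.6%, both in 7.6% and an E2F form in 16.3%. Among all 27025 genes with a window the shares were 37.9%, 27.8%, 10.9% and 9.69%. Genes of the same processes outside the set gave 60%, 62.2%, 46.7% and 26.7% for 45 other mitosis genes and 53.1%, 18.8%, 6.25% and 56.2% for 32 other replication genes. A match describes letters in the window and was not tested as a binding site.

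The 250 bases before the start are shown for 6 genes, 5′ to 3′ on the strand of the gene, with matched motifs in capitals. Rrm1 (chr7:102441445-102441694, plus strand) and Rrm2 (chr12:24708004-24708253, plus strand) are shown because they rose in irradiated knockout, and each has CCAAT and a single E2F form. Mcm6 (chr1:128359706-128359955, minus strand) has 4 E2F forms in the bases shown, in pairs that overlap on opposite strands. Aurka (chr2:172370571-172370820, minus strand) and Cenpa (chr5:30666636-30666885, plus strand) rose in the average over genotypes. Top2a (chr11:99024190-99024439, minus strand) has 6 CCAAT boxes and 2 CHR forms. Matches after the start are not shown, namely both CHR forms of Aurka, 1 of the 2 of Cenpa, the CHR form of Rrm2 and a further E2F form of Mcm6, and the Nusap1 window held none of these motifs.
Rrm1: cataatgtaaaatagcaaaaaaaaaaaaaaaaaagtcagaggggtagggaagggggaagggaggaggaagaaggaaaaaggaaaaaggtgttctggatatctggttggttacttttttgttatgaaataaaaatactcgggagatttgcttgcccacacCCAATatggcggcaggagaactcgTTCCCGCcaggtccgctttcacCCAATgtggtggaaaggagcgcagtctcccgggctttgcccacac
Rrm2: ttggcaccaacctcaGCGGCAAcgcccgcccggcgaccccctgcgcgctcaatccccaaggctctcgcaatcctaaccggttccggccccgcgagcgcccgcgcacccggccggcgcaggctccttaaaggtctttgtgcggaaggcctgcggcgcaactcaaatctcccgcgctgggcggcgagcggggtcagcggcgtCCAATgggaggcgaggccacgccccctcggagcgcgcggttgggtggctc
Mcm6: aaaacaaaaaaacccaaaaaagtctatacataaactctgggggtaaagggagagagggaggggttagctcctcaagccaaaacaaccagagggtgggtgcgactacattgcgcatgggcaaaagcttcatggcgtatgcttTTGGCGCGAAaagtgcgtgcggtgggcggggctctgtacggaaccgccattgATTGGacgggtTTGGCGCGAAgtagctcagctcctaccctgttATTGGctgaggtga
Aurka: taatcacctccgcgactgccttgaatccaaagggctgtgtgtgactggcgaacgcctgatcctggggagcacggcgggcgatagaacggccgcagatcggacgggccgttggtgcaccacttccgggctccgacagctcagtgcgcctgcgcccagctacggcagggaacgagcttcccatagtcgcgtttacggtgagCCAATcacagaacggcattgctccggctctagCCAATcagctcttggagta
Cenpa: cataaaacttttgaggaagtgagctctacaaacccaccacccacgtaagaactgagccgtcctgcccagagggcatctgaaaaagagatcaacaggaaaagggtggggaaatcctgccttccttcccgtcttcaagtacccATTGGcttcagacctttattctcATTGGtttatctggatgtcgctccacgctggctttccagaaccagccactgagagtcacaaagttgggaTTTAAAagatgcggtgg
Top2a: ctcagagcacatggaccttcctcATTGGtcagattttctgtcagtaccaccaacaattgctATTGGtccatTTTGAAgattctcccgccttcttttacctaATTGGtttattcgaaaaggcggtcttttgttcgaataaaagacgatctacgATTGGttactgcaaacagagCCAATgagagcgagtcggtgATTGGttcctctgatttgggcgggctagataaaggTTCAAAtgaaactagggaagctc

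Several arrays stood apart before any comparison. Replicate 1 of unirradiated knockout was the lowest of the 10 arrays for 24 of the 32 genes (75.0%), whereas it was the lowest for 13.7% of all genes tested. It lay below its partner, replicate 2, for 30 of 32 genes with a median log2 difference of -0.73, against -0.03 over all genes. Replicate 1 of unirradiated wild type likewise lay below replicate 2 for 29 of 32 genes, with a median of -0.29. Averaged over the mitotic genes, the deviation from the mean of the group means was -0.64 and 0.07 on the unirradiated knockout arrays and -0.19 and 0.20 on the unirradiated wild-type arrays. On irradiated arrays it was 0.18, 0.33 and 0.42 in wild type and -0.10, 0.07 and -0.06 in knockout. The S-phase genes deviated by -0.60 and 0.01 in unirradiated knockout, by 0.02 and 0.19 in unirradiated wild type, by -0.12, 0.22 and 0.13 in irradiated wild type and by -0.16, 0.52 and -0.02 in irradiated knockout. Replicate 2 of irradiated knockout was the highest array for 6 of the 11 S-phase genes.

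**Figure D1:**
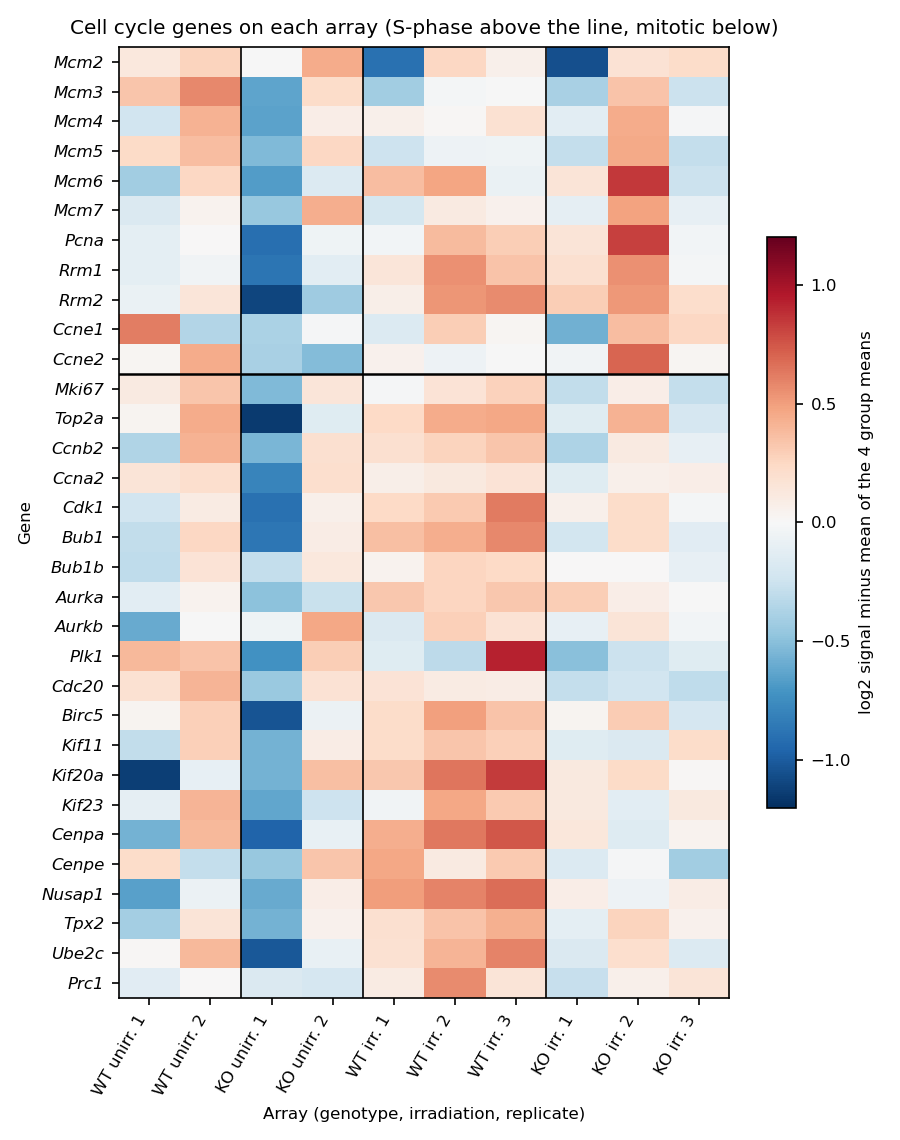
Deviation of the log2 signal of each gene from the mean of its 4 group means (colour scale, red higher, blue lower), with 11 S-phase genes above and 21 mitotic genes below the line and 10 arrays in columns (WT, wild type; KO, Pdgfc-/-; unirr., unirradiated; irr., irradiated). The column of unirradiated knockout replicate 1 is blue for most genes and is the lowest array for 24 of the 32.

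**Figure D2:**
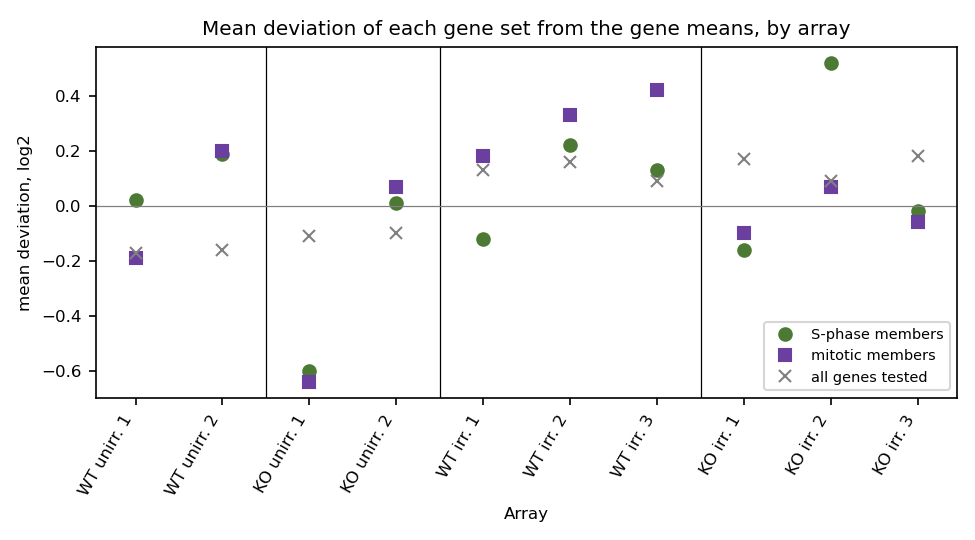
Mean deviation on the log2 scale of the S-phase genes (circles), the mitotic genes (squares) and all genes tested (crosses) on each of the 10 arrays, relative to the mean of the 4 group means of each gene. Unirradiated knockout replicate 1 lies lowest for both gene classes, at -0.60 and -0.64. For mitotic genes the irradiated wild-type arrays reach 0.18 to 0.42.

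Other facts of the arrays moved with the groups too. Xist, made from the inactive X chromosome of females, lay at 13.48 to 14.18 on the 3 irradiated wild-type arrays and on irradiated knockout replicate 1, and at 6.19 to 7.27 on the other 6. Sex pattern and irradiation therefore cannot be told apart in wild type. The log2 difference between the 3′ and 5′ Gapdh control probe sets was -0.54 to -0.35 on irradiated and -0.32 to 0.02 on unirradiated arrays. Pdgfc read 7.01 and 7.50 in unirradiated wild type, 6.42 and 5.62 in unirradiated knockout, 8.56, 8.75 and 8.67 in irradiated wild type, and 7.15, 6.26 and 7.10 in irradiated knockout. Colonocyte markers were present throughout, with 13 of 13 measured markers above the median on all unirradiated arrays and 12 of 13 on all irradiated arrays. Stratified squamous markers did so for 2 of 14 and 12 of 14, and their summed linear signal was 8310 to 12300 on unirradiated and 41800 to 122000 on irradiated arrays. Summed colonocyte signal was 155000 to 209000 without and 66800 to 130000 after irradiation. B and plasma cell markers summed to 1080 to 10500 and 34000 to 72400, and macrophage markers to 1500 to 3600 and 12200 to 24700. Fibroblast markers rose for 8 of 8 genes in both genotypes, from sums of 13500 to 16600 to sums of 53300 to 72500. Endothelial markers rose for 7 of 8 in both, from 1040 to 1490 up to 2660 to 4170. Striated muscle markers, at 631 to 7690 and 1030 to 71900, had a median log2 difference of 5.42 in wild type. Crypt stem cell markers rose for 4 of 9 and fell for 1 in wild type (median 0.90). In knockout 2 of 9 rose and 0 fell, and the median was -0.12. Their sums were 9500 to 13100 without and 9480 to 16800 after irradiation. The part of these cell types in the irradiation differences below was not tested.

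In wild type, the irradiated colorectum had more Nusap1 and Kif20a, and the S-phase genes as a class lay near no difference. Irradiation was compared with no irradiation to ask what remains 8 weeks after the dose. Of 21 mitotic genes, 2 rose and 0 fell; of 11 S-phase genes, 0 were called either way. Over all genes tested 15.8% rose and 8.34% fell, so 2 of 32 is a smaller share than the background. The mitotic genes still leaned upward: 17 of 21 differences were above zero with a median of 0.29, where 55.3% of all genes were above zero with a median of 0.07. For the S-phase genes 5 of 11 were above zero, with a median of 0.00. That median was -0.06 to 0.16 when 1 array was left out. It was higher when sex pattern was added as covariate, as given in the last section.

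Nusap1 encodes a protein that bundles spindle microtubules. Its log2 signal was 9.41 and 9.99 in unirradiated and 10.56, 10.66 and 10.73 in irradiated wild type. The irradiated arrays all lay above the unirradiated ones, by 0.95 ± 0.22 (SE, adjusted p = 0.015), a 1.93-fold higher signal. Kif20a, a kinesin motor needed for cytokinesis, read 6.69 and 7.72 in unirradiated and 8.14, 8.46 and 8.66 in irradiated wild type, again without overlap. Its difference was 1.21 ± 0.35 (SE, adjusted p = 0.034), and Kif20a has a single probe set. Both calls ended without replicate 1 of unirradiated wild type (Nusap1 0.66, adjusted p = 0.13), and without that array the mitotic median was 0.07, with 13 of 21 genes above zero. Leaving out replicate 2 or 3 of the irradiated group also ended the Kif20a call. When sex pattern was added as covariate, 0 members were called, and 16 genes in all. Nusap1 then lay at 0.88 ± 0.39 (SE, adjusted p = 0.42) and Kif20a at 1.21 ± 0.63 (SE, adjusted p = 0.50). The sex term is estimated only from irradiated knockout replicate 1 against its 2 partners.

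A further 6 mitotic genes lay higher without overlap and without a call. Cenpa, the histone H3 variant that marks centromeres, had a difference of 0.69 ± 0.31 (SE, adjusted p = 0.13). A dimmer Cenpa probe set, above the median on 5 of 10 arrays, gave 1.82 ± 0.50 (limma adjusted p = 0.038 over all probe sets). Another, above the median on 0 arrays, gave -1.71 ± 0.78. Cdk1, the kinase that drives entry into mitosis, read 10.06 and 10.39 without and 10.53, 10.60 and 10.91 after irradiation (0.45 ± 0.26, SE). Bub1 (0.48), Tpx2 (0.45), Aurka (0.34) and Prc1 (0.34) were the rest of this group. Cdc20, an activator of the anaphase-promoting complex, lay lower without overlap at -0.17 ± 0.18. In all, 8 of 21 mitotic genes were separate upward and 1 downward, where 30.8% and 22.8% of all genes were. Mki67, the gene of the proliferation marker Ki-67, read 11.74 and 11.97 without and 11.62, 11.80 and 11.91 after irradiation. Its difference was -0.08 with a 95% interval of -0.55 to 0.39, and the arrays overlapped. Top2a, the topoisomerase that untangles chromosomes, had 11.18 and 11.59 against 11.38, 11.59 and 11.61 (0.14, interval -0.51 to 0.79).

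Replication genes of the wild type pointed different ways. Mcm3, a subunit of the replicative helicase, read 10.27 and 10.52 without and 9.52, 9.92 and 9.93 after irradiation. Its arrays did not overlap, and the difference of -0.61 ± 0.29 (SE) had an adjusted p of 0.15. Mcm3 has 5 probe sets, of which a dimmer one lay at 0.47 and the others below zero. Mcm5 was also separate and lower, at -0.42 ± 0.27, whereas Rrm1 was separate and higher, at 0.43 ± 0.24. A dimmer Rrm1 probe set gave 1.30 ± 0.25 in wild type (SE, adjusted p = 0.0087 over all probe sets). Pcna read 12.88 and 13.01 without and 12.97, 13.38 and 13.30 after irradiation, with overlap. For Mcm2 the values were 9.80 and 9.94 without and 8.77, 9.92 and 9.73 after irradiation, so that replicate 1 of irradiated wild type was low. Mcm2 was low on irradiated knockout replicate 1 too, at 8.61, while its other irradiated knockout arrays read 9.84 and 9.89. Its other probe set read 9.17, 9.35 and 9.14 in irradiated wild type and 8.94, 9.62 and 9.06 in irradiated knockout, where replicate 1 was not set apart in this way.

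**Figure D3:**
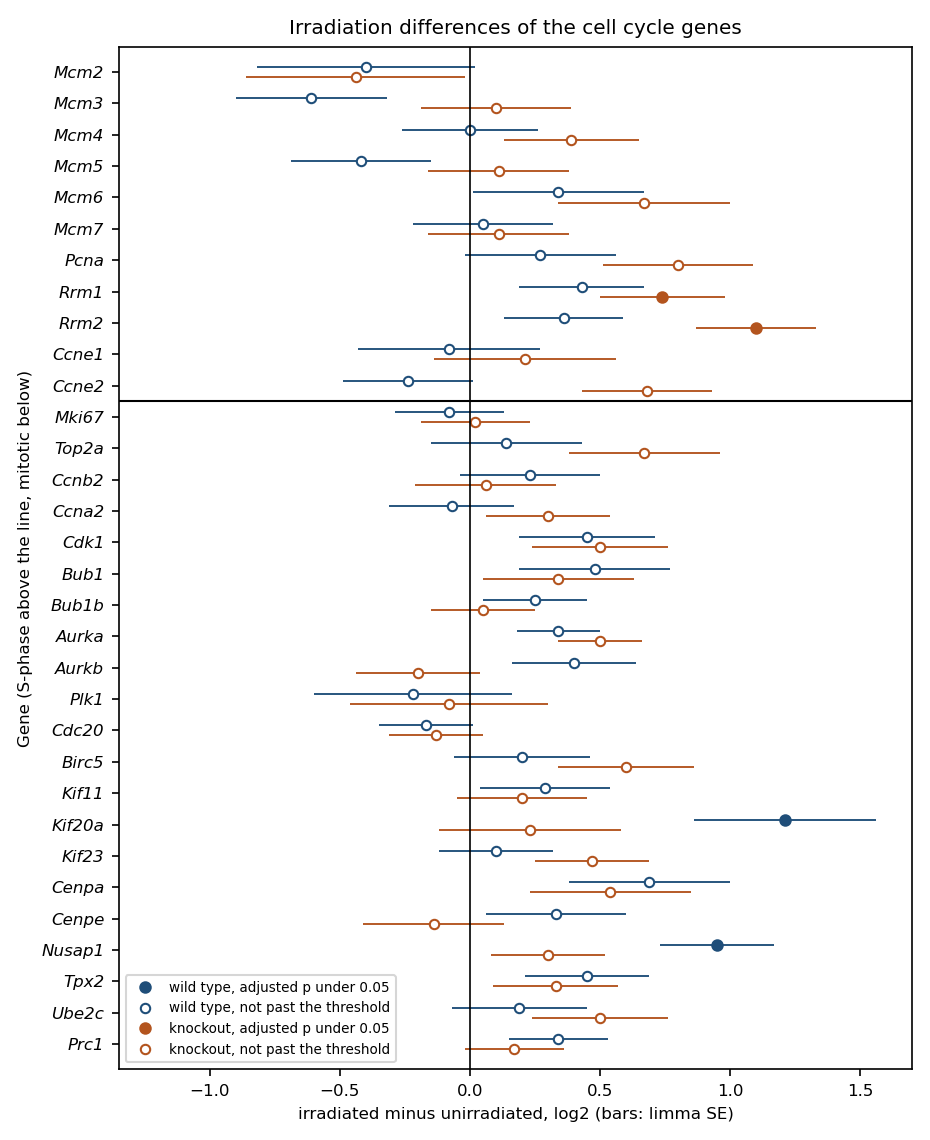
Irradiated minus unirradiated log2 signal of the 32 genes in wild type (blue) and knockout (orange), with limma standard errors as bars, S-phase genes above and mitotic genes below the line. Filled points are the 4 calls, Nusap1 and Kif20a in wild type and Rrm1 and Rrm2 in knockout.

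In knockout, irradiation was followed by higher Rrm1 and Rrm2, the large and small subunits of ribonucleotide reductase, which makes deoxyribonucleotides. Of 11 S-phase genes 2 rose and 0 fell, and of 21 mitotic genes 0 were called. Among all genes 14.0% rose and 9.5% fell, so the share of members called lay below the background here as well. The S-phase differences were above zero for 10 of 11 genes with a median of 0.39, and the mitotic ones for 17 of 21 with a median of 0.30. Over all genes 50.9% were above zero and the median was 0.01.

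Rrm2 read 9.05 and 9.73 in unirradiated knockout and 10.45, 10.67 and 10.36 in irradiated knockout. Every irradiated array lay above both unirradiated ones, by 1.10 ± 0.23 (SE, adjusted p = 0.0089), or 2.15-fold. Its other probe sets gave 0.88 ± 0.24 and 1.14 ± 0.39. Rrm1 read 9.91 and 10.66 without and 10.98, 11.33 and 10.76 after irradiation, a difference of 0.74 ± 0.24 (SE) with an adjusted p of 0.0498, just past the threshold and lost in 14 of 18 alternatives. A dimmer Rrm1 probe set gave 1.03 ± 0.25, and another, below the array median on all 10 arrays, gave -0.41 ± 0.60.

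Replicate 1 of unirradiated knockout carried much of these differences. Without it 0 members were called: Rrm2 lay at 0.76 (adjusted p = 0.084) and Rrm1 at 0.36 (adjusted p = 0.37). The S-phase median was then 0.03, with 7 of 11 genes above zero, and the mitotic median was -0.13, with 9 of 21 above zero. Without replicate 2 of unirradiated knockout, 8 members were called, namely Pcna, Rrm1, Rrm2, Top2a, Ccna2, Cdk1, Birc5 and Ube2c, and all 21 mitotic differences were above zero with a median of 0.64. Replicate 2 of irradiated knockout mattered for the S-phase genes, whose median was 0.22 without it. Between the male-pattern arrays alone, 2 irradiated against 2 unirradiated, the S-phase median was 0.50 with 10 of 11 genes above zero and the mitotic median 0.30 with 18 of 21.

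In irradiated knockout 5 members had an unadjusted p under 0.05 but missed the call. With the 2 called genes these were 7 of 32 members. Over all genes tested 4736 of 12568 had such a p, a larger share. Aurka, a kinase of the spindle poles, read 8.17 and 8.40 without and 8.96, 8.75 and 8.66 after irradiation, without overlap (0.50 ± 0.16, SE, adjusted p = 0.0518). Pcna read 12.10 and 12.95 without and 13.16, 13.82 and 12.97 after irradiation (0.80 ± 0.29, adjusted p = 0.074). For Ccne2, cyclin E2, the values were 7.83 and 7.70 against 8.18, 8.92 and 8.25 (0.68 ± 0.25, adjusted p = 0.073). Top2a, at 10 and 11.00 against 11.00, 11.56 and 10.94, and Birc5 (survivin, of the chromosomal passenger complex), at 0.60 ± 0.26, had adjusted p = 0.12 and 0.13. Mki67 read 11.11 and 11.78 without and 11.34, 11.72 and 11.35 after irradiation, a difference of 0.02 with an interval of -0.45 to 0.49. Cdk1, at 9.39 and 10.35 against 10.35, 10.51 and 10.26, had a difference of 0.50 (interval -0.08 to 1.09).

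The remaining members had no call in either genotype. Among the helicase subunits, Mcm4 lay at 0.00 in wild type and 0.39 in knockout, Mcm6 at 0.34 and 0.67, and Mcm7 at 0.05 and 0.11, with standard errors of 0.26 to 0.33. Mcm4 and Mcm6 each have a dimmer probe set above the median on all 10 arrays. It gave -0.58 in wild type and -0.26 in knockout for Mcm4, and -0.53 and 0.14 for Mcm6. Cyclin E1 (Ccne1), which drives the G1 to S transition with its kinase, lay at -0.08 and 0.21. Cyclin A2 (Ccna2), active in S phase and G2, lay at -0.07 and 0.30, and cyclin B2, the partner of Cdk1, at 0.23 and 0.06. A dimmer Ccna2 probe set gave 0.75 in wild type, 0.65 in knockout and 0.70 in the average (adjusted p = 0.023 over all probe sets). Of the mitotic kinases, Plk1 lay at -0.22 and -0.08 and Aurkb, the kinase of the chromosomal passenger complex, at 0.40 and -0.20. The spindle kinesin Kif11 (0.29 and 0.20), Kif23 (0.10 and 0.47), Cenpe (0.33 and -0.14), Ube2c (0.19 and 0.50) and Bub1b (0.25 and 0.05) had no call either. Several probe sets past the filter exist for 20 members, and they had a common sign for 15 members in wild type, 15 in knockout and 14 in the average.

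Averaged over genotypes, 6 members rose and 0 fell, of a background of 23.1% and 16% of all genes. This average uses the same 10 arrays as the comparisons above and adds no samples. The 2 S-phase genes were Rrm2 at 0.73 ± 0.16 (SE, adjusted p = 0.0062) and Rrm1 at 0.58 ± 0.17 (adjusted p = 0.021). The 4 mitotic genes were Nusap1 at 0.62 ± 0.16 (adjusted p = 0.012), Aurka at 0.42 ± 0.12 (adjusted p = 0.017), Kif20a at 0.72 ± 0.25 (adjusted p = 0.045) and Cenpa at 0.61 ± 0.22 (adjusted p = 0.0482). Rrm1 was the only member with all 6 irradiated arrays above all 4 unirradiated ones, a pattern that 15.4% of all genes showed. Cenpa read 8.89 and 9.84 in unirradiated wild type, 8.49 and 9.37 in unirradiated knockout, 9.89, 10.09 and 10.20 in irradiated wild type and 9.59, 9.30 and 9.50 in irradiated knockout. Its irradiated knockout arrays lay within the range of the unirradiated ones. Leaving out replicate 1 of unirradiated wild type left Rrm2 alone, leaving out replicate 1 of unirradiated knockout left Rrm2 and Nusap1, and leaving out replicate 2 of unirradiated knockout gave 14 calls. The sex pattern as a covariate left 0 of the 6. Of 17 alternatives, the call ended in 13 for Cenpa, 12 for Kif20a, 5 for Aurka, 4 for Rrm1, 2 for Nusap1 and 1 for Rrm2.

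**Figure D4:**
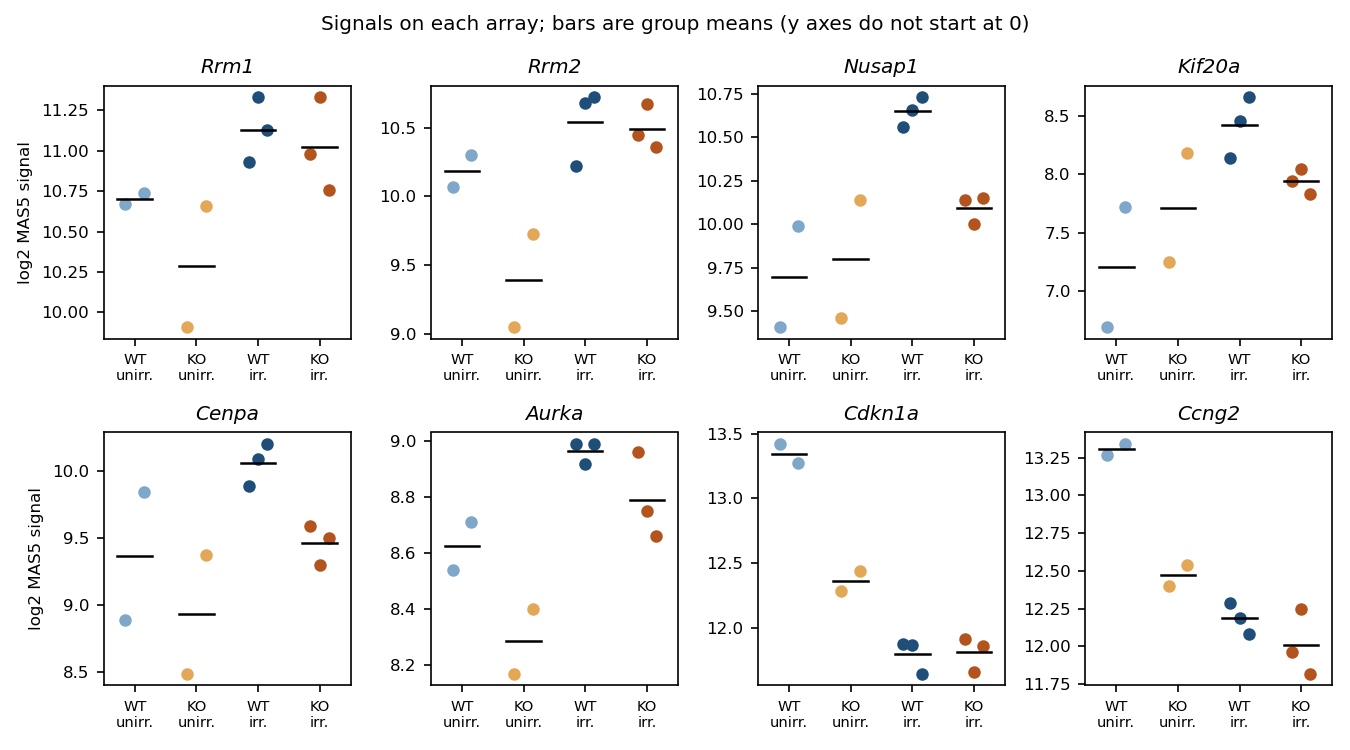
Log2 MAS5 signal on each array (points) with group means (bars) for the 6 members called in the average over genotypes and for the cell cycle inhibitors Cdkn1a and Ccng2, in unirradiated (unirr.) and irradiated (irr.) wild type (WT) and knockout (KO). Rrm1 is the member whose 6 irradiated arrays all lie above the 4 unirradiated ones, and Cdkn1a and Ccng2 lie lower on all 6.

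Without irradiation, the knockout was lower than the wild type in most of these genes, but no member was called. Differences were below zero for 27 of 32 members, 9 of 11 in S phase with a median of -0.42 and 18 of 21 in mitosis with a median of -0.36. Over all genes 43.1% were below zero and the median was 0.07. Limma called 0 members, where 0.422% of all genes were called higher and 0.804% lower. An unadjusted p under 0.05 was found for 7 of 32 members and for 2082 of 12568 genes. Both knockout arrays lay below both wild-type arrays for 12 of the 32 members, and for 18.9% of all genes.

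Rrm2 read 10.07 and 10.30 in wild type and 9.05 and 9.73 in knockout, a difference of -0.79 ± 0.25 (SE, adjusted p = 0.16). Top2a read 11.18 and 11.59 in wild type and 10 and 11.00 in knockout, at -0.89 ± 0.32 (adjusted p = 0.21). The other 5 with an unadjusted p under 0.05 were Ube2c (-0.76), the conjugating enzyme of the anaphase-promoting complex, Birc5 (-0.71), Ccne2 (-0.70), the cytokinesis kinesin Kif23 (-0.59) and Cdc20 (-0.44). Aurkb (0.52) and Kif20a (0.51) had the highest knockout values relative to wild type, with overlapping arrays. Without replicate 1 of unirradiated knockout the S-phase median was -0.05 and the mitotic median 0.02, with 12 of 21 mitotic genes above zero. These medians were -0.37 and -0.19 without replicate 2 of unirradiated wild type, with 8 of 21 mitotic genes above zero. Leaving out replicate 2 of unirradiated knockout or replicate 1 of unirradiated wild type made both medians lower. Striated muscle markers differed between the same arrays: their mean log2 signal was 4.24 and 4.44 in wild type and 9.02 and 8.56 in knockout, with 8 of 8 higher. Macrophage markers had means of 8.14 and 8.29 in wild type and 6.90 and 7.37 in knockout, with 8 of 8 lower. Neither list had a called gene, and their part in the lower cell cycle values was not tested.

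After irradiation, the mitotic genes of the knockout lay below those of the wild type by small steps, while the S-phase genes split around zero. The difference between the classes was not tested, and without replicate 2 of irradiated knockout all 11 S-phase genes lay below zero too, with a median of -0.16. All 21 mitotic differences were below zero, from -0.59 to -0.09 with a median of -0.31, whereas 49.3% of all genes were below zero with a median of 0.00. The S-phase genes split into 6 above and 5 below zero, with a median of 0.01 and a range of -0.11 to 0.23. Limma called 0 of the 12568 genes, at a smallest adjusted p of 0.22. An unadjusted p under 0.05 was found for 500 genes, no more than that threshold passes without any real difference. Among the 32 members, 2 had such a p. For the members the adjusted p was 1.00 throughout. Genes read on the same arrays are not independent of each other, so their common sign is a description.

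Arrays of the genotypes did not overlap for 9 of the 21 mitotic genes, all lower in knockout, against 4.04% of all genes and 0 of 11 S-phase genes. Nusap1 read 10.14, 10 and 10.15 in irradiated knockout and 10.56, 10.66 and 10.73 in irradiated wild type, a difference of -0.55 ± 0.20 (SE, unadjusted p = 0.020). Cenpa, with the values given above, had -0.59 ± 0.28. Cdc20 lay at -0.40 ± 0.16 (unadjusted p = 0.031), with group means of 10.58 ± 0.04 (SD, n = 3) in knockout and 10.98 ± 0.04 (SD, n = 3) in wild type. The spindle checkpoint kinase Bub1 (-0.50), the kinetochore kinesin Cenpe (-0.50), Kif20a (-0.48), cyclin B2 (Ccnb2, -0.38), Cdk1 (-0.31) and the checkpoint component Bub1b (-0.21) were the others. Mki67 read 11.34, 11.72 and 11.35 in knockout and 11.62, 11.80 and 11.91 in wild type, and Top2a read 11.00, 11.56 and 10.94 against 11.38, 11.59 and 11.61, both with overlap.

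The sign was the same for all 21 mitotic genes when any 1 of the 6 irradiated arrays was left out, except that 20 of 21 were below zero without replicate 2 of irradiated wild type. Female-pattern arrays alone, 1 of knockout against 3 of wild type, gave 21 of 21 below zero with a median of -0.44. On those arrays the S-phase genes were below zero for 11 of 11, with a median of -0.15. Mitosis genes outside the set were below zero for 45 of 50, with a median of -0.26, and other replication genes for 14 of 38, with a median of 0.07. Macrophage markers were below zero for 8 of 8 (median -0.54) and crypt stem cell markers for 8 of 9 (median -0.25) in the same comparison. Goblet cell markers were below zero for 8 of 8 (median -0.26) and B and plasma cell markers for 7 of 7 (median -0.23), while striated muscle markers were above zero for 8 of 8 (median 2.43). The part of these lists was not tested.

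**Figure D5:**
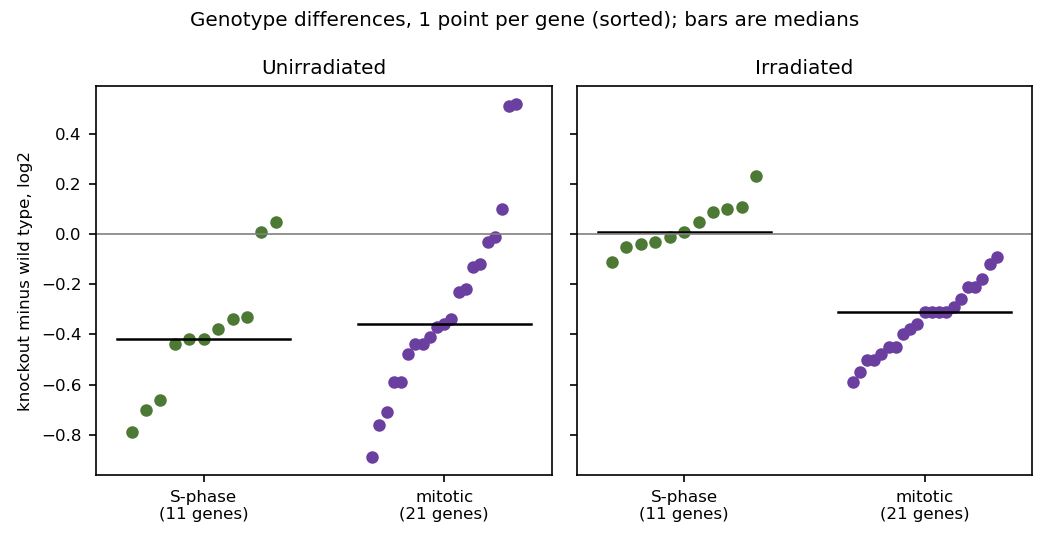
Knockout minus wild-type log2 difference of each S-phase (green) and mitotic (purple) gene, sorted within its class, without irradiation (left) and after it (right), with medians as bars. Without irradiation both medians lie below zero, at -0.42 and -0.36, and after irradiation the S-phase median is 0.01 while all 21 mitotic points lie below zero.

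The difference between the irradiation effects of the genotypes, tested as an interaction, was past the threshold for 0 members. Over all genes 0.207% were called. An unadjusted p under 0.05 was found for 2 of 32 members and for 1311 of 12568 genes. Ccne2 had an effect higher in knockout by 0.92 ± 0.35 (SE, adjusted p = 0.41) and Rrm2 by 0.75 ± 0.32 (adjusted p = 0.47). Nusap1, at -0.65 ± 0.32 (adjusted p = 0.52), and Kif20a, at -0.99 ± 0.50 (adjusted p = 0.55), had effects that were lower in knockout. The calls of Nusap1 and Kif20a in wild type and of Rrm1 and Rrm2 in knockout are therefore not shown to differ between the genotypes. The S-phase interaction values were above zero for 10 of 11 genes (median 0.39), and the mitotic ones for 10 of 21 (median -0.08). Over all genes 45.1% were above zero and the median was -0.05. These medians moved with the unirradiated knockout arrays: the mitotic one was -0.41 without its replicate 1 and 0.29 without its replicate 2, and the S-phase one was 0.10 and 0.75.

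Other genes of the cell cycle were taken from lists that do not overlap the set. Replication genes outside it rose for 2 of 38 in wild type, the origin recognition subunit Orc2 (0.64) and the clamp loader subunit Rfc3 (0.66), and for 1 of 38 in knockout, Orc6 (0.75). Other mitosis genes rose for 5 of 50 in wild type: Cenpp (1.23), Ttk (0.86), Ckap2 (0.81), Ndc80 (0.80) and Aspm (0.80). Of 18 alternatives the call ended in 15 for Cenpp, 14 for Orc2, 13 for Rfc3, 9 for Ttk, 7 for Ckap2 and 6 for Aspm. Alternatives are not reported for Ndc80. Without replicate 1 of unirradiated wild type Cenpp lay at 0.49 and Orc2 at 0.40, and with the sex covariate Ckap2 lay at 0.20. In knockout 6 of 50 rose, with Cks1b, a subunit that binds cyclin-dependent kinases, at 0.97 ± 0.17 (SE, adjusted p = 0.0038), and Spc25 and Ska1 of the kinetochore at 1.17 each. Spc25 lay at 0.59 without replicate 1 of unirradiated knockout and lost its call in 12 of 18 alternatives, and Orc6 lost its call in 6. Averaged over genotypes 5 of 38 and 13 of 50 rose, and 0 of either list fell in any of these 3 comparisons. These shares lay below or near those of all genes given above.

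Regulators of the entry into S phase moved in both directions. Among 12 G1 cyclins, kinases and activating E2Fs, Cdk6 rose by 1.24 ± 0.19 (SE, adjusted p = 0.0021) in wild type. It read 8.88 and 8.94 without and 10.04, 10.23 and 10.18 after irradiation in wild type, and 9.70 and 9.42 against 9.97, 9.42 and 9.47 in knockout. E2f2 rose in knockout by 1.88 ± 0.36 (adjusted p = 0.0059), from 6.57 and 7.81 to 8.59, 9.55 and 9.08. In wild type E2f2 read 8.79 and 8.70 without and 9.03, 9.0 and 8.95 after irradiation, so the unirradiated knockout arrays were the low ones. Cyclin D1 (Ccnd1, 0.82) and Tfdp1 (0.55), the partner of E2F proteins, also rose in knockout. E2f3 fell in both genotypes, by 0.58 in wild type and by 0.75 in knockout. The call ended in 12 of 18 alternatives for Tfdp1 and in 10 for E2f3 in wild type. It ended in 1 each for Ccnd1 and E2f3 in knockout. The interaction was not past the threshold for Cdk6 (-1.17, adjusted p = 0.17) or E2f2 (1.63, adjusted p = 0.30).

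Cdkn1a encodes p21, an inhibitor of cyclin-dependent kinases and a target of p53. Its log2 signal was 13.42 and 13.27 in unirradiated wild type, 12.29 and 12.44 in unirradiated knockout, 11.88, 11.87 and 11.65 in irradiated wild type, and 11.92, 11.66 and 11.86 in irradiated knockout. The 3 levels did not overlap: unirradiated wild type was highest, unirradiated knockout lay between, and all 6 irradiated arrays were lowest. Irradiation was followed by a fall of 1.55 ± 0.14 (SE, adjusted p = 3.0e-04) in wild type, and Cdkn1a fell by 0.55 ± 0.14 (adjusted p = 0.018) in knockout. Without irradiation it was lower in knockout, at -0.99 ± 0.15 (adjusted p = 0.015). The irradiated genotypes differed by 0.02 ± 0.12, and the interaction of 1.00 ± 0.19 had an adjusted p of 0.11. The genotype call ended in 6 of 18 alternatives, among them leaving out any 1 of the 4 unirradiated arrays (range -1.06 to -0.89, adjusted p up to 0.14), and leaving out either unirradiated knockout array ended the call in knockout.

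Ccng2, cyclin G2, which is linked to cell cycle arrest, followed the same order. It read 13.27 and 13.34 in unirradiated wild type, 12.40 and 12.54 in unirradiated knockout, 12.29, 12.19 and 12.08 in irradiated wild type, and 11.96, 12.25 and 11.82 in irradiated knockout. Its differences were -1.12 ± 0.15 (SE, adjusted p = 0.0011) for irradiation in wild type, -0.46 ± 0.15 (adjusted p = 0.0471) in knockout and -0.83 ± 0.16 (adjusted p = 0.043) between the unirradiated genotypes. That last call ended in 14 of 18 alternatives, among them leaving out any 1 of the 4 unirradiated arrays, with a range of -0.90 to -0.72 and an adjusted p of up to 0.26. The Ccng2 call in knockout was just past the threshold, and alternatives are not reported for it. Wee1, the kinase that holds back Cdk1, fell by 0.73 in wild type and by 1.34 ± 0.18 (adjusted p = 0.0011) in knockout. In wild type 3 inhibitors rose, Cdkn2d (p19, 1.10), Cdkn1c (p57, 0.89) and Cdkn2c (p18, 0.87). Their calls ended in 2, 12 and 5 of 18 alternatives, in that order. Among the genes called in wild type and tried under alternatives, 16 with both members, Cdkn1a alone held with the sex covariate. Among 15 such genes in knockout, Cks1b, E2f2, Ccnd1, Wee1 and Btg1, an antiproliferative gene (-0.77), held without replicate 1 of the unirradiated group. Of the 16 inhibitors and pocket proteins tested, 3 rose and 3 fell in wild type and 0 rose and 5 fell in knockout. Over all genes tested 15.8% rose and 8.34% fell in wild type, and 14.0% rose and 9.5% fell in knockout. Averaged over genotypes, Cdkn1a, Wee1 and Ccng2 were called in all 17 alternatives. Absorptive colonocyte markers fell with irradiation for 10 of 13 genes in wild type and 8 of 13 in knockout, and their part in the lower inhibitor signals was not tested.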

How the data were processed

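RNA from 10 colorectal samples was read on Affymetrix arrays with 45101 probe sets. The deposited log2 values are MAS5 signals, per the submitters' processing notes and the labels; no MAS5 version is given there. From the values, every array had a trimmed mean of 500 on the linear scale. Of the probe sets, 34945 name 1 gene, 932 several and 9160 none. A gene took its probe set with the highest mean, and genes that exceeded the array median on 2 or more arrays were tested. Limma 3.58.1 in R 4.3.3 fitted 1 mean per group to all 10 arrays (6 residual degrees of freedom), with a trended prior and Benjamini-Hochberg adjustment over 12568 genes; the fit was tested on simulated data.

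The members and lists were chosen with earlier results of these data known. Array values are given for members called in any comparison, the member of each class with the smallest p in each comparison, Mki67, Top2a, Cdk1, Pcna and Mcm2, and members without overlap that had the largest difference. From each other list up to 4 called genes per direction, or the 2 with the smallest p, could be named, and Cdkn1a always; values of other members, Cdc20 among them, were chosen after they were seen. Alternatives were quantile normalization, a pseudocount of 16, no filter, a mean of probe sets, no trend, fits of the groups compared, the replicate number as a block, sex pattern, and leaving out each array. The number of arrays limits precision.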

Additional observations from a re-analysis of the deposited data

How the results depend on the processing

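With fewer arrays or other settings the counts of called members moved as follows. For irradiation in wild type (2 members) the count was 1 under quantile normalization, 1 with only the groups compared and 0 when sex pattern was added as covariate, and 0 to 3 when each array was left out. For irradiation in knockout (2 members) it was 1 without a filter, with the mean of probe sets, with only the groups compared and with the sex covariate, and 0 to 8 when each array was left out. The replicate number as a block gave 4 there (Mcm6, Pcna, Rrm1 and Rrm2), 2 in wild type and 6 in the average. As deviations from their group means, same-numbered arrays correlated at -0.20 to 0.16 over 13 pairs, of which 3 were over 0.1. In a group of 2 arrays these deviations mirror each other, so the pairs are not independent. The values therefore cannot decide whether the numbers pair the samples. For the average over genotypes (6 members) the count was 0 with the sex covariate and 1 to 14 when each array was left out. Both genotype comparisons and the interaction had 0 called members under every alternative run. Where the left-out array leaves 1 in its group, that array is assumed to vary like the others. Among differences that were never past the threshold, some changed sign. Mki67 in wild type was 0.03 under quantile normalization, 0.12 with the sex covariate and -0.19 to 0.04 when arrays were left out; in knockout it was -0.31 to 0.36 when arrays were left out. Top2a in wild type was -0.06 to 0.34 when arrays were left out, and Mcm2 was 0.86 with the sex covariate. Between irradiated genotypes, Ccne2 was -0.04 with the sex covariate and -0.01 to 0.36 when arrays were left out. Dbf4 was 0.15 with the mean of probe sets, and Cdkn1a was -0.05 with that mean and -0.06 to 0.09 when arrays were left out. The cause of these changes was not tested. With the sex covariate the S-phase median in wild type was 0.42. Among the genes tried under alternatives in each comparison and the class medians, 263 lost a call, 6 gained one, 14 changed sign, 11 medians moved beyond the spread between arrays and 1665 did none of these.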
